A study of Mus musculus with 12 samples.

Results

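RNA was taken from a ribosome pull-down directed at glial cells of the muscularis externa, which also held RNA of other cells. Naive mice (T0) were compared with mice taken 3 h after manipulation of the small intestine (T3). The comparison took the 6 libraries precipitated with anti-HA antibody out of 12 libraries in the series, and covered rises and falls over every gene. Of 12975 genes in the count table, 9441 had enough counts in these libraries to be tested and 3534 did not.

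All 6 mice carried PLPCreERT2 and Rpl22HA (B6J.129(Cg)-Rpl22tm1.1Psam/SjJ). PLPCreERT2 is a glia-directed Cre recombinase that acts only after tamoxifen, and Rpl22HA is an allele of a ribosomal protein gene that gains an HA tag after Cre has acted. Naive and manipulated animals alike received 2 intraperitoneal doses of tamoxifen (100 ul of 15 mg/ml in Miglyol 812) at 10 to 12 weeks of age and were killed 3 to 4 weeks after the first dose. Per the study's methods the mice were female. The T3 mice were anaesthetised, the abdomen was opened and the small intestine was handled along its length with a cotton applicator. A sham-operated group was not analysed here, so the effects of anaesthesia, incision and handling cannot be told apart. Each time point had 3 mice, numbered 1, 2 and 4 at T0 and 1, 3 and 4 at T3, and values are given in this order. The cleared homogenate of each mouse was divided between the anti-HA antibody and an isotype control IgG, and the IgG libraries serve here as the background measured in the same animals.

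Enteric glia surround the neurons of the myenteric and submucosal plexus and express Sox10 and S100b. This Cre is also active in Schwann cells of nerve fibres, so the tag is not limited to glia within ganglia. In a RiboTag pull-down the tagged ribosomes bring along the transcripts they carry, together with some RNA of untagged cells that sticks to the beads. An injured tissue first switches on a set of early transcription factors, whose messages need no new protein, and these are followed by cytokines, stress proteins and inhibitors that end the signal.

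HA libraries held 1789710 to 2870591 counts at T0 and 1221788 to 1495439 at T3, so every T3 library was shallower than every T0 library. IgG libraries held 388214 to 1289833 counts at T0 and 88136 to 248522 at T3. The limit that a count of 0 allows (3 counts) was 1.05 to 2.46 CPM in HA and up to 34.04 CPM in IgG, which covers counting error only. CPM are counts scaled to a library total of 1000000, and fold changes are T3 against T0 on the log2 scale after TMM scaling, also where a value in parentheses is headed log2. Glial markers were higher in HA than in IgG. Sox10 was at 408, 365 and 609 CPM at T0 and 198, 338 and 414 at T3 in HA and at 18, 22.3 and 27.9 CPM at T0 and 68.1, 76.1 and 24.1 at T3 in IgG. The summed level of 50 glia and Schwann cell genes in the table was 10520.0 to 13286 CPM in HA T0 against 2000.4 to 2635 in IgG T0. The HA pull-down also held RNA of another cell type. Markers of interstitial cells of Cajal summed to 3466 to 4543 CPM in HA T0 and to 453 to 649 in IgG T0, with Kit at 909.5, 976 and 1027 CPM in HA T0. Smooth muscle genes summed to 28252 to 42654 CPM in HA T0 and 87243 to 105380.0 in IgG T0. In pull-downs of whole tissue, fewer cells of a type and less RNA per cell cannot be told apart.

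The clearest rises were in early response genes that were low in the naive HA libraries and genes that buffer metal and oxidant stress. Csrnp1, an early nuclear factor, was at 15.7, 17.9 and 17.8 CPM at T0 and 1111, 864 and 895 at T3 (log2 fold change 6.07, SE 0.21, adjusted p = 8.61e-14, edgeR quasi-likelihood test). Sphk1, the kinase that makes sphingosine 1-phosphate, was at 19.6, 15.1 and 15 CPM at T0 and 926, 943 and 998 at T3 (log2 fold change 6.10, SE 0.22, adjusted p = 8.61e-14). Mt2, a metallothionein that binds zinc and copper, was at 407, 217 and 261 CPM at T0 and 24999, 26132 and 28272 at T3 (log2 fold change 6.74, SE 0.28, adjusted p = 8.19e-13). Each of the 3 T3 libraries lay far above each T0 library for these genes, which were chosen to have no overlap. Mt1, its neighbour in the metallothionein cluster, was at 672, 603 and 706 CPM at T0 and 19552, 20165 and 22125 at T3, and Srxn1, which repairs oxidised peroxiredoxins, at 79.9, 85.5 and 81.5 CPM at T0 and 1956, 2007 and 2607 at T3. Rcan1, an inhibitor of calcineurin, was at 43.8, 31.3 and 32.4 CPM at T0 and 1039, 829 and 895 at T3 (log2 fold change 4.94).

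AP-1 is the dimer of FOS and JUN proteins, and its letters TGANTCA (searched on both strands) stand close to the start of several of these genes. The stretches below are shown because these genes had the smallest p-values among the rises and hold the letters within 120 bases upstream of an annotated start. They were read from the RefSeq promoter table (GRCm38.p6) and the AP-1 letters are in capitals.
Csrnp1, chr9:119983024-119983143, minus strand: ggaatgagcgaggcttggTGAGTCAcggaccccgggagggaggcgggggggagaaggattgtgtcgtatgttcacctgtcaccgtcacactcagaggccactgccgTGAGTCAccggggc
Sphk1, chr11:116531717-116531836, plus strand: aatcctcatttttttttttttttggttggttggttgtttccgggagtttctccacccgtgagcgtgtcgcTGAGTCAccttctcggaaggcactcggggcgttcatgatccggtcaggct
Srxn1, chr2:152105404-152105523, plus strand: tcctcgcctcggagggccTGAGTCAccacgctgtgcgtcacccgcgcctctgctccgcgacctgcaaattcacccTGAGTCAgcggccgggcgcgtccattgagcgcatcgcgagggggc
Rcan1, chr16:92400079-92400198, minus strand: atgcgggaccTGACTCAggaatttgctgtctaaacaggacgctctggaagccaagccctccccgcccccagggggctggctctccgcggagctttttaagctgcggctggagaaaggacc
Mt2, chr8:94172498-94172617, plus strand: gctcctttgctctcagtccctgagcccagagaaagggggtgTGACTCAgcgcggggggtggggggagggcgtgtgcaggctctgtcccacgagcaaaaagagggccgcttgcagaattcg
Of the 12 rises with the smallest p-values, 10 had a stretch that was read and 5 of the 10 held these letters. The 5 genes have 13 start sites in the table, and the letters were searched at each. The stretches at the other start sites of Csrnp1, Sphk1 and Rcan1 did not hold them. Counted from the start, the first letter lay at -102 and -14 in Csrnp1, at -50 in Sphk1, at -102 and -45 in Srxn1, at -110 in Rcan1 and at -79 in Mt2. Over the longer window of the table (250 bases before to 50 after the start), 462 of 7570 tested genes with a promoter held TGANTCA, 6.1%. The window differs from that of the stretches, so these shares are not compared. A comparison of promoter letters between genes that rose and genes that fell was void, because fewer than 80% of the genes that rose most had a promoter in the table. The presence of the letters is a description and not a binding site.

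**Figure D1:**
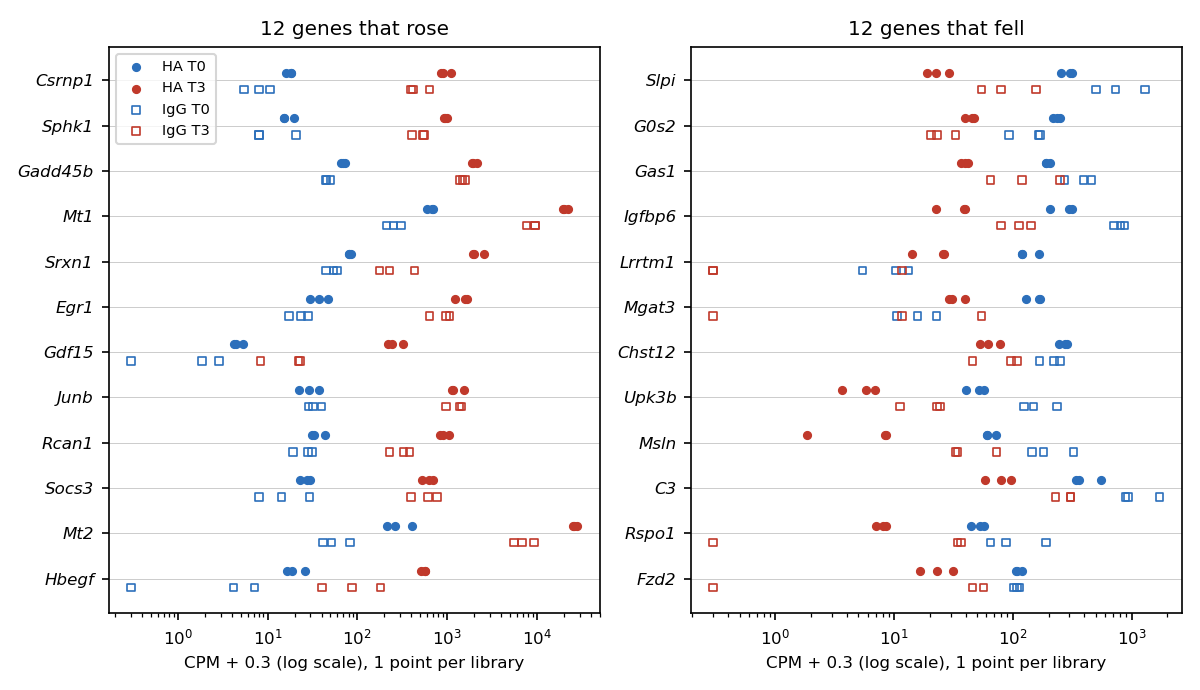
Level in every library of the 12 genes with the smallest p-values among rises (left) and falls (right). The horizontal axis is CPM plus 0.3 on a log scale, filled circles are HA and open squares IgG libraries, blue is T0 and red T3. The genes were chosen to have no overlap between T0 and T3 in HA, so the HA gap is fixed by that choice, and the mean of the IgG squares of each rising gene is higher at T3.

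Changes were spread over much of the tested transcriptome. In HA T3 against T0, 3187 of 9441 genes passed an adjusted p of 0.05 (33.8%), 1765 higher (18.7%) and 1422 lower (15.1%). The HA libraries of the 2 times did not overlap in CPM for 4793 genes (50.8%). CPM are scaled to library totals and not by TMM, so this count depends on scaling too. Of the genes called, 80.3% of the rises and 99.5% of the falls did not overlap. Rises reached further than falls. A log2 fold change of 1 or more was found for 1025 genes that rose and 698 that fell, of 2 or more for 341 and 62, and of 3 or more for 147 and 8. The median change was 1.12 among genes that rose and -0.99 among those that fell, against -0.02 over all genes tested. Genes that rose by at least 2 made up 1.23 to 1.31% of the T0 libraries and 13.4 to 13.9% of the T3 libraries. All genes that fell together went from 16.2 to 16.97% of a library at T0 to 7.09 to 8.48% at T3.

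The split of rises and falls depended on scaling. With library totals in place of TMM, 1208 genes were higher and 2641 lower, 31.4% of calls being rises against 55.4%, and the median over all genes moved from -0.02 to -0.28. With all HA libraries thinned to 1221788 counts, 2889 of 8718 tested genes were called, 1628 higher and 1261 lower. Without the HA library of T3 mouse 4 the calls were 1375 higher and 841 lower. In the IgG pull-down of the same mice, 285 of 5219 tested genes passed (5.46%), 231 higher and 54 lower. That number was 174 without the IgG library of T0 mouse 2, 167 without that of T0 mouse 4 and 181 without that of T3 mouse 4. These libraries are shallow, and 1236 of the 3187 genes called in HA could not be tested in IgG. The p-values measure the spread between 3 mice per time point.

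**Figure D2:**
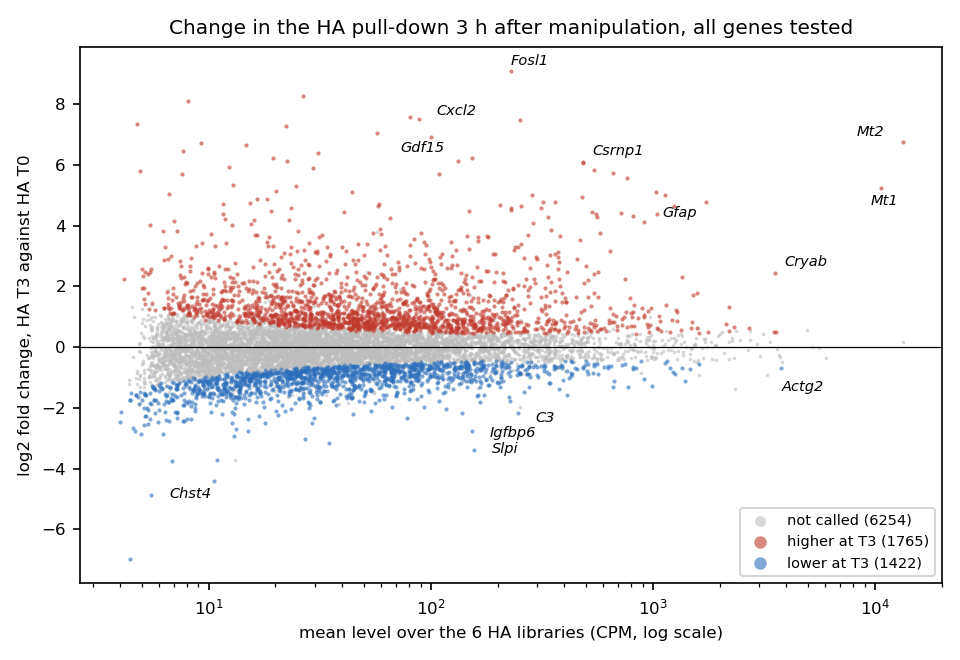
Log2 fold change of HA T3 against HA T0 for the 9441 genes tested (vertical axis) against the mean over the 6 HA libraries in CPM (log scale). Red and blue mark the 1765 genes called higher and 1422 called lower, and the highest point is at 9.07 (Fosl1). Values of genes at 3 counts or fewer in every library of a time, such as Chst4, depend on the fit and are not sizes.

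Early transcription factors rose almost as a whole. Of 40 listed genes 35 were tested, 32 rose and none fell, with a median of 3.29, and 32 had no overlap between times. Their summed level was 1258.6 to 1570.1 CPM at T0 and 11509 to 12935 CPM at T3. Fosl1, an AP-1 partner picked after its values were seen because its fold was the largest, was at 1.92, 0 and 0.697 CPM at T0 and 343, 477 and 557 at T3 (log2 fold change 9.07). Fosb, another partner, was at 5.76, 2.79 and 1.39 CPM at T0 and 515, 478 and 512 at T3 (log2 7.47). Egr1, a zinc finger factor induced by growth factor signalling, was at 46.8, 29.1 and 37.3 CPM at T0 and 1674, 1589 and 1240.3 at T3 (log2 5.56). Every T3 level of these 3 genes lay far above every T0 level, and for Egr1 a lack of overlap was a condition of choice. Junb (log2 fold change 5.72), Maff (log2 5.69) and Ier2 (log2 4.57) rose likewise. Egr3 was at 0.384, 0 and 1.05 CPM at T0 and 38.5, 41.5 and 35 at T3, which is at least 29.7-fold higher than the floor of 3 counts in each T0 library. The same list rose in IgG for 18 of 25 tested members and fell for none. There Fosb was at 5.15, 6.86 and 2.33 CPM at T0 and 817, 706 and 579 at T3, and Egr1 at 23.2, 17.1 and 27.9 CPM at T0 and 1067, 967 and 639.8 at T3.

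Secreted signals had more rises than falls. Of 45 tested cytokines, chemokines and growth factors, 24 rose and 7 fell, with a median of 0.69 (20 and 11 with library totals, median 0.42). Gdf15, a stress-induced member of the TGF-beta family, was at 4.99, 3.91 and 4.18 CPM at T0 and 319, 243 and 217 at T3 (log2 fold change 6.13, SE 0.26, adjusted p = 4.91e-13). Hbegf, a ligand of the EGF receptor, was at 25.7, 16.2 and 18.5 CPM at T0 and 562, 514 and 572 at T3 (log2 fold change 5.02, SE 0.22, adjusted p = 8.24e-13). Gdnf, a survival factor for enteric neurons and their precursors, was at 14.6, 12.9 and 17.8 CPM at T0 and 215, 255 and 375 at T3 (log2 fold change 4.48, SE 0.25, adjusted p = 2.71e-11). The T3 libraries stood above the T0 libraries without overlap for all 3, which was a condition of choice for Gdf15 and Hbegf. In IgG, Gdf15 was at 2.58, 0 and 1.55 CPM at T0 and 22.7, 21.7 and 8.05 at T3 and Hbegf at 0, 6.86 and 3.88 CPM at T0 and 182, 86.9 and 40.2 at T3, both below the HA level at T3. Gdnf was at 10.3, 10.3 and 14.7 CPM at T0 and 79.4, 54.3 and 40.2 at T3 in IgG, and its change was larger in HA (interaction, log2 2.49, adjusted p = 0.022, or 0.00345 with the animal as a block). That interaction call was lost under 10 of 18 alternatives.

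Ligands of the IL-6 family, which signal through gp130, rose together. Lif was at 3.84, 1.12 and 0.697 CPM at T0 and 184, 158 and 254 at T3 (log2 fold change 6.90), Il6 at 1.92, 0.559 and 0.348 CPM at T0 and 29.5, 23.4 and 14 at T3 (log2 4.70) and Il11 at 3.07, 2.23 and 0.348 CPM at T0 and 6.55, 12 and 31.9 at T3 (log2 3.43). Clcf1 rose by less, 0.91 (SE 0.22), a call that was lost in a fit of all 12 libraries. Several chemokines rose as well, among them those for neutrophils (Cxcl1 log2 6.38, Cxcl2 log2 7.50), for monocytes (Ccl2 log2 5.83, Ccl7 log2 4.87) and for T cells (Cxcl10 log2 4.45). Cxcl12 (log2 -0.35), Cxcl16 (log2 -0.53) and Cx3cl1 (log2 -0.11) were not called. Ccl2 was at 39.2, 10.6 and 15.7 CPM at T0 and 903, 1537 and 769 at T3 in HA and at 2.58, 1.71 and 0.775 CPM at T0 and 647, 446 and 269.6 at T3 in IgG. Cxcl2 was at 2.3, 0.559 and 0.348 CPM at T0 and 201, 214 and 114 at T3 in HA and at 0, 1.71 and 0.775 CPM at T0 and 193, 130.4 and 64.4 at T3 in IgG. In each T3 mouse both were lower in IgG than in HA. Ccl7 stood the other way round, at 1.54, 1.68 and 1.05 CPM at T0 and 34.4, 38.1 and 32.7 at T3 in HA and at 2.58, 1.71 and 1.55 CPM at T0 and 90.8, 65.2 and 64.4 at T3 in IgG. Which cells supplied the chemokine RNA was not tested. Csf3, the granulocyte growth factor, was at least 14.1-fold higher at T3 than the floor of 3 counts per library, and Ccl4 at least 19.4-fold higher.

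Several other growth factors were called with smaller changes than Gdnf. Csf1, which macrophages need for survival, was at 116, 142 and 144 CPM at T0 and 226, 235 and 162 at T3 (log2 fold change 0.90, SE 0.19, adjusted p = 0.000899). Vegfa (log2 fold change 1.15), Pdgfa (log2 1.15) and Artn (log2 1.47), a relative of Gdnf, rose. Tgfb1 (log2 0.62), Tgfb2 (log2 0.69) and Il34 (log2 1.27) were called higher, but each call was lost under 4 to 6 alternatives. Among the falls were Vegfb, a relative of Vegfa that is not induced by hypoxia (584, 518 and 589 CPM at T0 and 176, 281 and 211 at T3, log2 fold change -1.07), and Tgfb3 (150.1, 182 and 143 CPM at T0 and 64.7, 69.5 and 62.3 at T3, log2 -1.01). Edn3, the endothelin that keeps enteric precursors undifferentiated and that interstitial cells of Cajal also make, was at 430.0, 514 and 726 CPM at T0 and 299.6, 237 and 262 at T3 (log2 -0.79, lost in a fit of all 12 libraries). Il15, a growth factor of lymphocytes, was at 17.3, 8.94 and 19.5 CPM at T0 and 1.64, 6.02 and 4.67 at T3 (log2 -1.60), a call that was lost without T3 mouse 1. The 14 ligands that were not called, among them Nrtn, Cxcl12, Kitl and Mdk, had log2 fold changes of -0.66 to 0.61.

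Receptors showed no common direction. Of 51 tested, 14 rose and 9 fell with a median of 0.13, and with library totals the split was 13 and 14 and the median -0.13. The shares were 27.5% higher and 17.6% lower, against 18.7 and 15.1% over all genes. Osmr, the oncostatin M receptor subunit, was at 10.8, 10.6 and 6.27 CPM at T0 and 46.7, 85.6 and 50.6 at T3 (log2 3.01). Il17ra was at 41.5, 46.4 and 34.5 CPM at T0 and 232, 192 and 199 at T3 (log2 2.61), and Ngfr, the p75 neurotrophin receptor, at 517, 598 and 442 CPM at T0 and 1080.4, 1009 and 1280.0 at T3 (log2 1.38). Tnfrsf12a, the receptor of TWEAK, was at 155, 131 and 50.2 CPM at T0 and 2100.2, 2502 and 2509 at T3 (log2 4.66) and was among the 12 transcripts that gained most CPM. Both signalling receptors for TGF-beta fell, Tgfbr1 by 0.93 and Tgfbr2 by 1.05 on the log2 scale, as did Il10rb by 1.09.

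Inhibitors that act back on growth factor and cytokine signals were mostly higher. Of 19 tested MAPK feedback genes, 13 rose and 1 fell, with a median of 1.09. Trib1, a pseudokinase that marks C/EBP factors for degradation, was at 29.6, 29.1 and 32.7 CPM at T0 and 867, 549.7 and 673 at T3 (log2 4.77). Errfi1, an inhibitor of the EGF receptor, was at 9.6, 6.15 and 7.32 CPM at T0 and 159.6, 119.7 and 91.9 at T3 (log2 4.24), and the phosphatase gene Dusp1 at 22.3, 18.4 and 21.9 CPM at T0 and 87.6, 173 and 102 at T3 (log2 2.79). Spry2 rose by 3.06 and Dusp2 was at least 10.2-fold higher, whereas Lrig3 was at 34.9, 36.3 and 49.5 CPM at T0 and 19.6, 18.7 and 16.4 at T3 (log2 -0.87), a fall that was lost in a fit of all 12 libraries and without T3 mouse 4.

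Of 25 tested NF-kB genes, 20 rose and none fell (median 2.17). Nfkbia, the inhibitor that NF-kB itself induces, was at 162, 165 and 114 CPM at T0 and 3729.8, 2887 and 3392 at T3 (log2 fold change 4.76, SE 0.22, adjusted p = 1.42e-12). Bcl3 (log2 3.57), Nfkbiz (log2 3.30), Rela (log2 2.59) and the adhesion molecule gene Icam1 (log2 3.39) rose too. In the JAK-STAT list 17 of 20 rose and none fell (median 2.82). Socs3, the feedback inhibitor of gp130 signalling, was at 29.6, 22.9 and 27.5 CPM at T0 and 623, 689 and 531 at T3 (log2 fold change 4.78, SE 0.21, adjusted p = 7.10e-13), and Stat3 at 114, 115 and 108 CPM at T0 and 710.4, 598 and 628 at T3 (log2 2.79). In IgG, 11 of 15 tested NF-kB genes and 9 of 14 JAK-STAT genes rose, and Socs3 was at 7.73, 29.1 and 14 CPM at T0 and 397, 772 and 616 at T3.

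Interferon genes and genes induced by glucocorticoids were also higher. Of 23 tested interferon genes, 17 rose and none fell, with a median of 1.06. In the shallower IgG libraries 1 of 14 tested rose, and none of the list passed the interaction of antibody and time (3 with the animal as a block). Rsad2, an antiviral enzyme, was at 4.22, 4.47 and 1.39 CPM at T0 and 42.6, 26.1 and 33.5 at T3 (log2 3.63), Ifit1 at 8.45, 6.15 and 6.97 CPM at T0 and 57.3, 48.1 and 52.9 at T3 (log2 3.11) and Isg15, a ubiquitin-like modifier, at 95.6, 82.7 and 119.8 CPM at T0 and 661, 629.9 and 669.6 at T3 (log2 2.98). Irf1, which drives part of this set, rose by 3.08. Of the antigen presentation list 5 of 16 rose, led by the peptide transporter Tap1 (log2 1.62) and the immunoproteasome subunit Psmb8 (log2 1.06), and none fell. In the glucocorticoid list 15 of 18 rose (median 3.06). Members such as Mt1, Mt2, Nfkbia, Errfi1, Cebpd and Per1 are also counted in other lists here, so this is not a separate set of genes. Cebpd was at 0, 0.559 and 0 CPM at T0 and 63.8, 58.8 and 36.6 at T3 and at least 41.1-fold higher than the floor. Nr3c1, the glucocorticoid receptor gene itself, fell, from 53, 60.3 and 73.2 CPM at T0 to 24.6, 27.4 and 21.8 at T3 (log2 -1.06). In the clock list 9 of 13 rose and none fell (median 1.05; 7 rose and 2 fell with library totals). Per1, which answers both light and stress hormones, was at 14.2, 52 and 23 CPM at T0 and 304, 296 and 288 at T3 (log2 3.63), and Nr1d1 at 89.5, 108 and 142 CPM at T0 and 354, 337 and 372 at T3 (log2 1.92). The hour of the day at which the mice were taken is not given in the sources used here, and its part in these values was not tested.

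**Figure D3:**
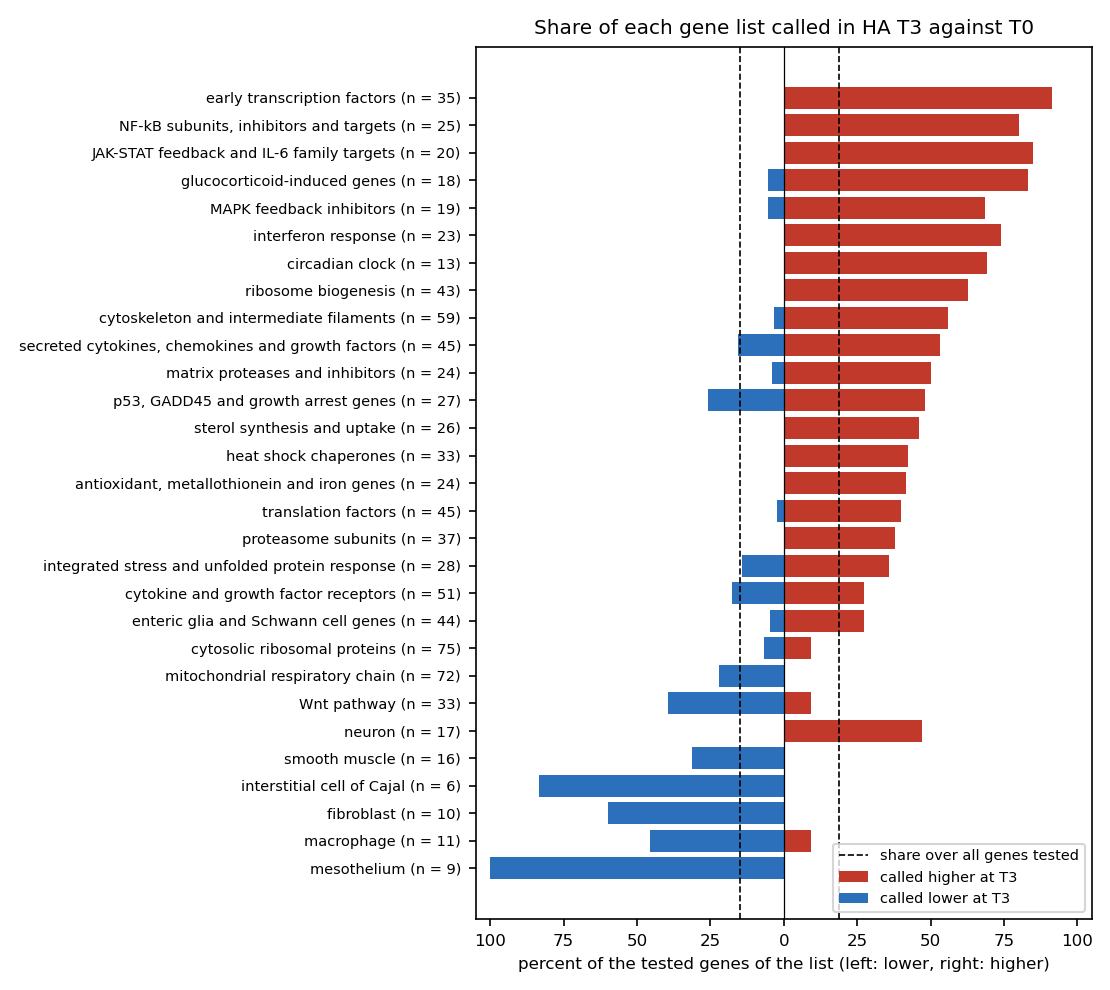
Share of the tested genes of each list called higher (right, red) or lower (left, blue) in HA T3 against T0, in percent, with n the number tested. Dashed lines mark the shares over all genes tested, 18.7% higher and 15.1% lower. Early transcription factors (32 of 35 higher) and mesothelial genes (9 of 9 lower) are at the ends.

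Protein quality control and stress defence rose in parts. Of 33 heat shock chaperone genes 14 rose and none fell, with a median of 0.39 (10 rose and 2 fell with library totals). Bag3, a co-chaperone, was at 86.8, 77.7 and 85.3 CPM at T0 and 534, 514 and 519 at T3 (log2 2.91). Cryab, a small heat shock protein that glia express in naive tissue, was at 1416, 1101 and 1326 CPM at T0 and 6284, 5481 and 5771 at T3 (log2 2.45), and Hspb1 at 962, 816 and 659 CPM at T0 and 1744, 2369 and 2545 at T3 (log2 1.71). Hspa1a, whose reads cannot always be told from those of a near-identical neighbouring copy, was at 34.6, 25.7 and 17.8 CPM at T0 and 71.2, 100.3 and 81.8 at T3 (log2 1.96). The list of the integrated stress and unfolded protein responses did not move as 1 block. Its smallest p-values were in rises of genes downstream of translation control, Ppp1r15a by 3.38, Atf4 by 2.25 and the amino acid transporter gene Slc7a5 by 1.67. Whether that branch rose as a whole was not tested. The endoplasmic reticulum chaperone cofactors Sdf2l1 (20.0, 12.9 and 19.9 CPM at T0 and 4.91, 6.69 and 4.67 at T3) and Creld2 (113, 126 and 78.4 CPM at T0 and 54.8, 45.5 and 34.3 at T3) fell. In all 10 of its 28 tested members rose and 4 fell, with a median of 0.24 (8 and 7 with library totals, median -0.02).

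Antioxidant, metallothionein and iron genes rose for 10 of 24 tested, and none fell (10 and 3 with library totals). Hmox1, haem oxygenase, was at 3.84, 5.59 and 3.48 CPM at T0 and 63, 80.2 and 88.8 at T3 (log2 4.46), Txnrd1, thioredoxin reductase, at 54.5, 69.8 and 59.9 CPM at T0 and 186, 245 and 236 at T3 (log2 2.13) and the zinc importer gene Slc39a14 at 38.4, 30.7 and 38.3 CPM at T0 and 79.4, 125 and 109 at T3 (log2 1.81). Among genes of growth arrest, the GADD45 family and the cyclin-dependent kinase inhibitor gene Cdkn1a rose. Gadd45b was at 71.8, 65.9 and 69.3 CPM at T0 and 2135, 1955 and 1898 at T3 (log2 5.11), Gadd45g at 45.3, 41.9 and 27.5 CPM at T0 and 575, 507 and 543 at T3 (log2 4.09) and Cdkn1a at 66, 63.7 and 53 CPM at T0 and 975, 1113 and 1055 at T3 (log2 4.37). The T3 libraries of these genes were all above the T0 libraries, which was a condition of choice for Gadd45b. Other members of that list fell. G0s2, an inhibitor of lipolysis, was at 249.6, 218 and 233 CPM at T0 and 39.3, 44.8 and 46.7 at T3 (log2 -2.16), and Gas1, a surface protein that takes part in Hedgehog signalling, at 190.0, 203 and 190.2 CPM at T0 and 41.7, 39.5 and 36.6 at T3 (log2 -2.04). The list as a whole counted 13 rises and 7 falls of 27 tested, with a median of 0.19 (-0.08 with library totals). In the BCL2 family 3 of 15 rose, 1 fell and 11 were not called, shares of 20.0 and 6.67% against 18.7 and 15.1% over all genes. The survival genes Mcl1 (log2 1.68) and Bcl2l1 (log2 1.71) and the death gene Bbc3 (log2 2.10) rose, and the death gene Bad fell (log2 -0.80).

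The machinery that builds ribosomes was higher while the ribosomal proteins were close to level. Of 43 tested ribosome biogenesis genes 27 rose and none fell (median 1.02), among them Ppan (33.4, 28.5 and 19.9 CPM at T0 and 195, 126 and 187 at T3, log2 2.89), Nop58 (15, 17.9 and 16.4 CPM at T0 and 63, 55.5 and 84.1 at T3, log2 2.31) and Gnl3 (log2 2.02). Of 75 cytosolic ribosomal protein genes 7 rose and 5 fell, with a median of 0.20. With library totals 4 rose and 12 fell, with a median of -0.07. The tagged gene itself, Rpl22, stood at 77.9, 78.2 and 93.7 CPM at T0 and 72, 62.2 and 61.5 at T3 and was not called. Translation factors rose for 18 of 45 tested and fell for 1 (median 0.40; 11 and 7 with library totals). Eif1a, which sets start site choice, was at 6.91, 6.15 and 4.53 CPM at T0 and 49.1, 44.1 and 39.7 at T3 (log2 3.18) and Etf1, a release factor, at 37.2, 38 and 43.9 CPM at T0 and 110.5, 118 and 113 at T3 (log2 1.78). Proteasome subunits rose for 14 of 37 and none fell (6 and 3 with library totals), with Psmd3 at 149, 139 and 119.8 CPM at T0 and 310.2, 251 and 287 at T3 (log2 1.32), and tRNA synthetases for 8 of 19 (5 and 2 with library totals), none of them by 1 or more.

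The respiratory chain had no rise and 16 falls among 72 tested genes, with a median of -0.24, and 41 falls with library totals. Atp5g2, a subunit c gene of the ATP synthase, was at 26.1, 7.26 and 19.5 CPM at T0 and 4.91, 4.01 and 3.11 at T3 (log2 -1.90), and Ndufb5 at 369, 349.8 and 472 CPM at T0 and 151, 192 and 155 at T3 (log2 -0.99). Glycolysis and hypoxia genes rose for 6 of 25 and fell for none, a share of rises of 24.0% against 18.7% over all genes (4 rose and 3 fell with library totals, and 3 rose in a fit of all 12 libraries). Pfkfb3, which makes the activator of phosphofructokinase, was at 15, 18.4 and 24.7 CPM at T0 and 73.7, 102 and 84.1 at T3 (log2 2.42). Sterol synthesis and uptake rose for 12 of 26 and fell for none (12 and 3 with library totals). Hmgcs1, an early enzyme of sterol synthesis, was at 192, 170.4 and 169 CPM at T0 and 638, 554 and 577 at T3 (log2 2.00), and Srebf2, a factor that drives these genes, rose by 1.40. Solute carriers fell for 41 and rose for 23 of 165 tested, shares of 24.8 and 13.9% against 15.1 and 18.7% over all genes. The lysosome list had 3 rises and 5 falls of 33, shares of 9.09 and 15.2% against 18.7 and 15.1% over all genes. Its falls included the glial orphan receptor gene Gpr37 (41.8, 44.7 and 69 CPM at T0 and 4.91, 21.4 and 9.34 at T3, log2 -1.81).

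The cytoskeleton was among the larger lists that rose. Of 59 tested genes 33 rose and 2 fell (median 0.74; 27 and 7 with library totals), and 8 rose and 1 fell of 51 in IgG. The IgG libraries are shallower, and over all genes tested 5.46% were called there and 33.8% in HA. Of the list, 2 genes passed the interaction of antibody and time (6 with the animal as a block). Nes, nestin, the intermediate filament of neural precursors, was at 43, 48.1 and 27.9 CPM at T0 and 619, 578 and 699.9 at T3 (log2 fold change 4.27, SE 0.23, adjusted p = 1.32e-11). Flnc, filamin C, was at 68, 112 and 85.3 CPM at T0 and 933, 624 and 990.3 at T3 (log2 3.53), and Ezr, which ties membrane to actin, at 61.8, 72.1 and 80.8 CPM at T0 and 413, 398 and 554 at T3 (log2 2.94). Tuba1c (log2 3.20), which has close copies among the tubulin genes, and Tpm3 (log2 2.25) rose as well. Lmna, the nuclear lamin A gene, was at 599, 511 and 480.4 CPM at T0 and 2135, 2220.1 and 2220.5 at T3 (log2 2.31) and was among the 12 genes that gained most CPM.

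Matrix proteases and matrix genes were counted apart. In the protease and inhibitor list 12 of 24 rose and 1 fell (9 and 5 with library totals). Timp1, the metalloprotease inhibitor, was at 30.7, 16.8 and 20.2 CPM at T0 and 435, 387 and 483 at T3 (log2 4.51), Plaur, the urokinase receptor, at 2.3, 3.91 and 2.79 CPM at T0 and 69.6, 76.9 and 111 at T3 (log2 5.12) and Adamts1 at 85.2, 64.8 and 46 CPM at T0 and 1251, 1145 and 777 at T3 (log2 4.27). Matrix and basement membrane genes rose for 14 and fell for 10 of 51 (9 and 17 with library totals). Their shares were 27.5% higher and 19.6% lower, against 18.7 and 15.1% over all genes. Col27a1 rose by 1.59 and Has1, a hyaluronan synthase, was at least 7.84-fold higher, whereas Dcn (log2 -1.79), Sparcl1 (log2 -1.31) and Fn1 (log2 -0.97) fell. Of these, Dcn is also a marker of fibroblasts.

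Glial identity genes did not move together. Of 44 tested glia and Schwann cell genes 12 rose, 2 fell and 30 were not called, with a median of 0.28. The shares were 27.3% higher and 4.55% lower, against 18.7 and 15.1% over all genes. With library totals 9 rose and 6 fell and the median was 0.02. The summed level was 10520.0 to 13286 CPM at T0 and 17483 to 18671 CPM at T3, a sum in which Cryab alone went from 1416, 1101 and 1326 to 6284, 5481 and 5771. Gfap, the glial filament protein used as a sign of reactive glia, was at 129.8, 95.5 and 129.6 CPM at T0 and 1515, 1672 and 1959.7 at T3 (log2 fold change 4.12, SE 0.20, adjusted p = 3.61e-12). Sox2, a factor of precursor state, was at 20.7, 17.9 and 26.1 CPM at T0 and 57.3, 62.9 and 73.2 at T3 (log2 fold change 1.83, SE 0.23, adjusted p = 2.85e-06). Gap43, a growth cone protein also made by Schwann cells, was at 134, 107 and 141 CPM at T0 and 273, 312 and 298 at T3 (log2 fold change 1.47, SE 0.18, adjusted p = 2.16e-06). No overlap between times was seen for these 3 genes. Glul, glutamine synthetase, was at 11.9, 6.15 and 4.18 CPM at T0 and 40.9, 20.7 and 31.9 at T3 (log2 2.30), Sox6 rose by 1.55 and Col28a1, a collagen of Schwann cells, by 1.43. S100b (636, 464 and 660.1 CPM at T0 and 959, 713 and 706 at T3, log2 0.70) and Mbp (log2 0.77) were called higher, and both calls were lost with library totals and in a fit of all 12 libraries.

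Several genes of glial lineage were not called. Sox10 had a log2 fold change of -0.26 (SE 0.26) and its T0 and T3 levels overlapped. Foxd3 (log2 0.39), Ednrb (log2 -0.22), Entpd2 (log2 -0.07), Apod (log2 -0.10) and Fabp7 (log2 -0.38) were not called either. The 2 falls were Kcna2, a potassium channel of glia and axons (96.8, 95 and 191 CPM at T0 and 22.1, 40.8 and 31.9 at T3, log2 -1.72), and Gpr37l1, an orphan receptor of glia (1874, 1566 and 1728 CPM at T0 and 669.5, 1036 and 649 at T3, log2 -0.87). In IgG the T3 libraries of mice 1 and 3 held more glial RNA than the others, with Sox10 at 18, 22.3 and 27.9 CPM at T0 and 68.1, 76.1 and 24.1 at T3. The part of this in comparisons of HA with IgG was not tested.

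**Figure D4:**
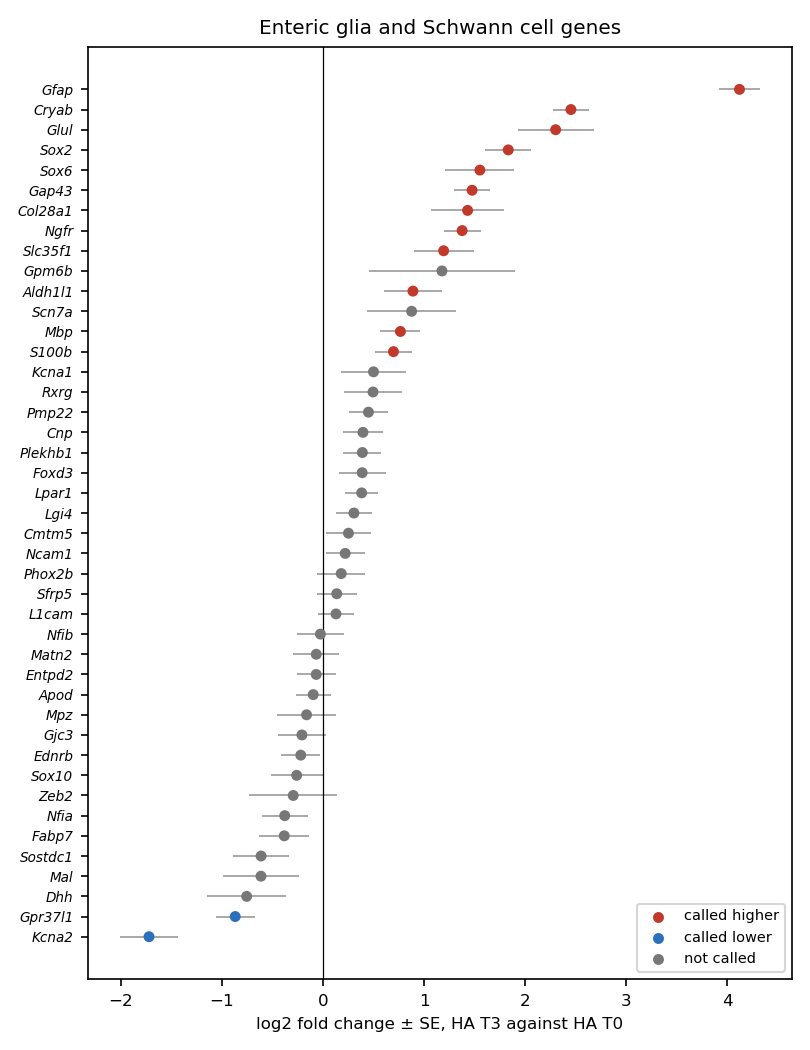
Log2 fold change of HA T3 against HA T0 (horizontal axis, bars are SE, 3 mice per time) for 43 of the 44 tested glia and Schwann cell genes. Red points were called higher (12), blue lower (2) and grey not called (29). Gfap is at 4.12, while Sox10 lies near 0.

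Pathways that pattern glia and their neighbours changed gene by gene. In the BMP and TGF-beta list 9 of 30 rose and 5 fell, with a median of 0.09 (6 and 8 with library totals, median -0.18). The shares were 30.0% higher and 16.7% lower, against 18.7 and 15.1% over all genes. Id3, an inhibitor of differentiation factors, was at 83.3, 71 and 74.9 CPM at T0 and 291, 413 and 340.2 at T3 (log2 2.45), Smad7, the inhibitory SMAD, rose by 1.52 and Tmem100 was at 61.4, 30.2 and 46 CPM at T0 and 6.55, 16.7 and 8.56 at T3 (log2 -1.82). In the Notch list the ligand gene Dll1 (log2 2.56) and the receptor gene Notch1 (log2 1.53) rose, as did the pathway inhibitor gene Numbl (log2 1.92) and the target gene Hes1 (log2 0.96). Nrarp, at 20.7, 30.2 and 42.5 CPM at T0 and 4.09, 2.01 and 7.79 at T3 (log2 -2.49), Hey2 (log2 -2.03) and Lfng (log2 -1.60) fell. The list as a whole had 6 rises and 4 falls of 17 tested, shares of 35.3 and 23.5% against 18.7 and 15.1% over all genes. Of 33 tested Wnt genes 13 fell, 3 rose and 17 were not called, with a median of -0.61 (19 fell and 1 rose with library totals). Rspo1, which amplifies Wnt signals, was at 44.2, 57 and 52.3 CPM at T0 and 8.18, 6.69 and 7.79 at T3 (log2 -2.49), Fzd2, a receptor, at 108, 119.6 and 106 CPM at T0 and 31.1, 22.7 and 16.4 at T3 (log2 -1.99) and Wls, which exports Wnt proteins, at 55.3, 72.1 and 75.9 CPM at T0 and 13.1, 29.4 and 15.6 at T3 (log2 -1.51). In the Hedgehog and Hippo list 4 of 19 rose and 4 fell, 21.1% each against 18.7% higher and 15.1% lower over all genes. Cyr61 (log2 4.32), Amotl1 (log2 1.41), Ankrd1 (log2 2.93) and Yap1 (log2 1.31) rose, and Ajuba (log2 -1.75), Ctgf (log2 -0.79), Smo (log2 -1.01) and Cdon (log2 -1.11) fell. The call of Ctgf was lost in a fit of all 12 libraries.

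Surface receptors, channels, axon guidance genes and chromatin enzymes added single genes in both directions. The shares called in these 4 lists, 10.3 to 25.7% higher and 13.6 to 22.9% lower, lay around those of all genes. Of 35 tested G protein-coupled receptors 9 rose and 8 fell (8 and 12 with library totals), with Bdkrb1, the inducible bradykinin receptor, at 0.768, 3.91 and 1.05 CPM at T0 and 22.9, 24.1 and 24.1 at T3 (log2 4.02) and Ednra, an endothelin receptor, at 41.8, 42.5 and 70.0 CPM at T0 and 4.09, 12.7 and 7.79 at T3 (log2 -2.34). Ion channels counted 4 rises and 7 falls of 39 (2 and 12 with library totals), with Kcnk1, a leak channel, at 34.2, 27.4 and 39.7 CPM at T0 and 9, 6.02 and 4.67 at T3 (log2 -2.10). Axon guidance genes counted 8 and 6 of 44 (6 and 13 with library totals), with Epha2 rising by 3.47 and Epha7 falling by 1.84. Among 37 chromatin enzymes 9 rose and 6 fell. Kdm6b, the H3K27 demethylase, was at 35.7, 65.9 and 41.1 CPM at T0 and 489, 518 and 503 at T3 (log2 3.69), Dot1l at 10.4, 9.5 and 6.62 CPM at T0 and 59.7, 58.8 and 65.4 at T3 (log2 3.06) and Setd1b at 29.6, 41.3 and 34.5 CPM at T0 and 6.55, 6.69 and 10.1 at T3 (log2 -1.90). Only 7 cell cycle genes had enough counts to be tested, of which 4 rose, among them the cyclin gene Ccne1 (log2 1.57). That count was 1 with library totals, with DESeq2 and with the replicate block, and 2 after thinning.

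Markers of mesothelium, fibroblasts, interstitial cells of Cajal, smooth muscle and macrophages were called lower more often than higher, and those of neurons higher. All 9 tested mesothelial genes fell, with a median of -3.02. Slpi, a protease inhibitor of lining cells, was at 299.8, 254 and 316 CPM at T0 and 22.1, 18.7 and 28.8 at T3 (log2 fold change -3.38, SE 0.22, adjusted p = 2.10e-10). Upk3b was at 56.4, 51.4 and 39.7 CPM at T0 and 6.55, 3.34 and 5.45 at T3 (log2 fold change -3.02, SE 0.33, adjusted p = 5.46e-07) and Msln, mesothelin, at 71.4, 60.3 and 59.9 CPM at T0 and 8.18, 8.02 and 1.56 at T3 (log2 fold change -3.15, SE 0.34, adjusted p = 5.49e-07). Krt7 and Upk1b, with 3 counts or fewer in every T3 library, were both lower, Krt7 at least 9.12-fold. The summed mesothelial level was 741 to 876 CPM in HA T0 and 80.2 to 97 in HA T3, and 2081 to 3514 and 306 to 503 in IgG, where 7 of 9 fell. These genes stood at higher levels in IgG than in HA at both times.

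Fibroblast markers fell for 6 of 10 tested (median -1.10), with Pdgfra at 26.1, 33 and 19.5 CPM at T0 and 1.64, 9.36 and 0.779 at T3 (log2 -2.36) and Cd34 at 10.4, 14.5 and 12.2 CPM at T0 and 3.27, 2.67 and 0 at T3 (log2 -2.32), and their sum was 1096 to 1494 CPM in HA T0 and 343 to 584 in HA T3. Markers of interstitial cells of Cajal fell for 5 of 6 tested (1 of 6 in a fit of all 12 libraries), and their sum was 1627 to 2076 CPM in HA T3, below each T0 library. Kit, the receptor of stem cell factor, was at 909.5, 976 and 1027 CPM at T0 and 462, 379 and 281 at T3 (log2 fold change -1.11, SE 0.18, adjusted p = 9.08e-05). Ano1, the chloride channel of these cells, was at 1939.6, 1613 and 2320.1 CPM at T0 and 1058, 1014 and 877 at T3 (log2 -0.73), a call lost in a fit of all 12 libraries. Smooth muscle genes had no rise and 5 falls of 16 (12 falls with library totals), with Acta2 at 179, 184 and 153 CPM at T0 and 49.1, 70.9 and 57.6 at T3 (log2 -1.27) and Lmod1 at 19.2, 31.8 and 17.1 CPM at T0 and 3.27, 8.69 and 6.23 at T3 (log2 -1.58). Macrophage markers fell for 5 of 11 and rose for 1, Cd14, the LPS coreceptor (11.9, 8.94 and 6.27 CPM at T0 and 36.8, 51.5 and 31.9 at T3, log2 2.41). Lyz2 (log2 -1.20) and Csf1r (log2 -1.17) were lower. S100a9, a neutrophil gene at the floor at T0, was at 1.15, 0.559 and 0.348 CPM at T0 and 98.2, 16.7 and 18.7 at T3, at least 34.5-fold higher or at least 13.7-fold without T3 mouse 1, and its call was lost after thinning and without any 1 of the T0 mice. Neuronal markers rose for 8 of 17 and fell for none (4 rose with library totals), with the neuropeptide gene Gal at 652, 923 and 1057 CPM at T0 and 1580.5, 1234 and 2211 at T3 (log2 1.21) and Tubb3, a tubulin, at 90.6, 86 and 53 CPM at T0 and 125, 96.3 and 192 at T3 (log2 1.11). Epithelial genes fell for 4 of 15, 26.7% against 15.1% over all genes, and rose for none. Of the endothelial genes 1 of 6 rose, 16.7% against 18.7% over all genes. Of the neutrophil and monocyte list 3 genes could be tested, and of the lymphocyte and mast cell list 1, Kit. The part of neighbouring cells in the rises and falls of other genes was not tested.

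The other falls with small p-values were single genes of different roles. Lrrtm1, a synaptic adhesion protein, was at 120.2, 118 and 165 CPM at T0 and 13.9, 26.1 and 25.7 at T3 (log2 fold change -2.34, SE 0.24, adjusted p = 2.07e-07) and was at 12.9, 5.14 and 10.1 CPM at T0 and 11.3, 0 and 0 at T3 in IgG. Mgat3, which adds bisecting sugars to glycoproteins, was at 128, 167 and 168 CPM at T0 and 30.3, 28.8 and 38.9 at T3 (log2 fold change -1.97, SE 0.20, adjusted p = 2.34e-07), and Chst12, a chondroitin sulfotransferase, at 276, 288 and 245 CPM at T0 and 61.4, 77.6 and 52.9 at T3 (log2 fold change -1.81, SE 0.20, adjusted p = 4.91e-07). C3, the central complement protein, was at 361, 553 and 342 CPM at T0 and 78.6, 95.6 and 58.4 at T3 in HA (log2 -2.17) and at 935, 886 and 1724 CPM at T0 and 306, 304 and 229 at T3 in IgG. Igfbp6 was at 296, 315 and 207 CPM at T0 and 22.1, 39.5 and 38.2 at T3 (log2 -2.76) in HA and at 711, 806 and 869.9 CPM at T0 and 79.4, 141 and 113 at T3 in IgG. By loss of CPM the largest falls were in Actg2, Mylk, Gpr20, Ano1 and Gpr37l1. Actg2, the enteric smooth muscle actin, was at 5739, 5534 and 3738 CPM at T0 and 2110.0, 2683 and 2960.1 at T3 (log2 -0.70), a call lost in 3 alternatives, among them the fit without T3 mouse 1. Gpr20 was at 1579.9, 1396 and 1479 CPM at T0 and 576, 509 and 441 at T3 (log2 -1.28). Mylk was at 2179, 2258 and 1623 CPM at T0 and 737, 905 and 689.8 at T3 (log2 -1.12), a call lost in a fit of all 12 libraries.

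Of all called genes, 16 had 3 counts or fewer in every T0 library and 18 in every T3 library. For the first set the lower bound of the fold had a median of 13.3 and reached 41.1 for Cebpd. Irg1, which makes itaconate in activated myeloid cells, was at least 34.3-fold higher, at 0.768, 0 and 0 CPM at T0 and 32.7, 64.2 and 35.8 at T3. Ptx3, a secreted pentraxin, was at least 22.5-fold higher. For the second set the bound had a median of 4.20, measured against the shallower T3 libraries. Nr2f2, a nuclear receptor of lymphatic and mesenchymal cells, was at least 4.91-fold lower, at 7.68, 7.26 and 18.5 CPM at T0 and 2.46, 1.34 and 1.56 at T3. Genes were split into 5 equal classes of abundance. From the rarest to the most abundant class, the share called higher went from 10.0 to 27.9% and the median SE from 0.40 to 0.18. The share called lower changed less, from 12.6 to 14.8%, and was highest in the class just below the most abundant. The median log2 fold change went from -0.15 to 0.11. With the larger SE, small changes of rare genes were harder to detect at this depth. Why rises and falls differed across the classes was not tested.

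A last comparison asked which changes in HA differed from those in IgG of the same mice. Of 10314 genes tested for the interaction of antibody and time, 34 passed (0.33%), 31 more positive and 3 more negative in HA. With the animal as a block, which pairs the HA and IgG libraries of a mouse, 156 passed (1.51%), 131 more positive and 25 more negative, and all 34 were among them. Leaving out 1 library at a time gave between 5 genes (without the HA library of T3 mouse 4) and 95 (without the IgG library of the same mouse). The number was also well below 34 without the HA libraries of T0 mice 2 and 4 (11 and 7) or T3 mice 1 and 3 (19 and 16), and without the IgG libraries of T0 mice 2 and 4 (21 and 13) or T3 mouse 3 (13). Of the 156, 98 rose in HA with a more positive change and 13 fell with a more negative one. Among the 45 tested ligands, Gdnf alone was one of the 34. Ezr was at 82.4, 96 and 124 CPM at T0 and 102, 141 and 145 at T3 in IgG and rose by 2.94 in HA (interaction, log2 2.66, adjusted p = 0.00072, or 1.81e-07 with the animal as a block). Srxn1 was at 59.2, 44.6 and 54.3 CPM at T0 and 431, 228 and 177 at T3 in IgG (interaction, log2 2.79, adjusted p = 0.00072, or 2.39e-07 with the animal as a block). Id3 was at 137, 122 and 109 CPM at T0 and 79.4, 174 and 121 at T3 in IgG (interaction, log2 2.51, adjusted p = 0.00113, or 5.11e-07 with the animal as a block). For these genes HA rose far more than IgG. Cryab was at 618, 603 and 794 CPM at T0 and 976, 1011 and 599.5 at T3 in IgG (interaction, log2 2.25, adjusted p = 0.00113, or 2.83e-06 with the animal as a block). S100a10, an annexin partner, was at 259.9, 245 and 239 CPM at T0 and 476, 706 and 772 at T3 in HA and at 428, 249 and 325 CPM at T0 and 216, 326 and 233 at T3 in IgG (interaction, log2 2.15, adjusted p = 0.00638, or 5.90e-06 with the animal as a block). Pdxk, pyridoxal kinase, was at 66.8, 82.7 and 96.8 CPM at T0 and 275, 225 and 405 at T3 in HA and at 64.4, 80.6 and 71.3 CPM at T0 and 68.1, 76.1 and 80.5 at T3 in IgG (interaction, log2 2.16, adjusted p = 0.0158, or 0.00019 with the animal as a block). In IgG the T0 and T3 levels of Cryab and S100a10 were close, while in HA every T3 library was higher. Frmd4a (interaction, log2 2.69) and Rhoj (2.01) completed the 8 smallest p-values. Ezr, Srxn1, Id3, Cryab and Frmd4a kept the call under every alternative tried, S100a10 lost it without the HA library of T3 mouse 4, and Pdxk lost it there and with library totals. Rhoj lost it under 5 of 18 alternatives. Gdnf, described above, lost it under 10 of 18 alternatives.

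The 3 genes with a more negative change in HA were Adgrd1, Kit and Crispld2. Adgrd1, an adhesion receptor, was at 1026, 1438 and 1434 CPM at T0 and 631, 470.1 and 460.1 at T3 in HA and at 67, 97.7 and 73.7 CPM at T0 and 329, 337 and 72.4 at T3 in IgG (interaction, log2 -2.40, adjusted p = 0.026, or 4.83e-05 with the animal as a block). Kit was at 69.5, 96 and 65.1 CPM at T0 and 249.6, 228 and 64.4 at T3 in IgG (interaction, log2 -2.06, adjusted p = 0.036, or 0.00019 with the animal as a block). In both cases IgG was high in T3 mice 1 and 3 and near the T0 level in T3 mouse 4. Crispld2, a secreted protein that binds LPS, rose in HA, 179, 155 and 131 CPM at T0 and 334, 356 and 323 at T3, and more so in IgG, 43.8, 75.4 and 49.6 CPM at T0 and 419.8, 630.3 and 382 at T3 (interaction, log2 -1.56, adjusted p = 0.049, or 0.00404 with the animal as a block). Adgrd1 and Kit each lost the call under 8 of 18 alternatives and Crispld2 under 11.

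**Figure D5:**
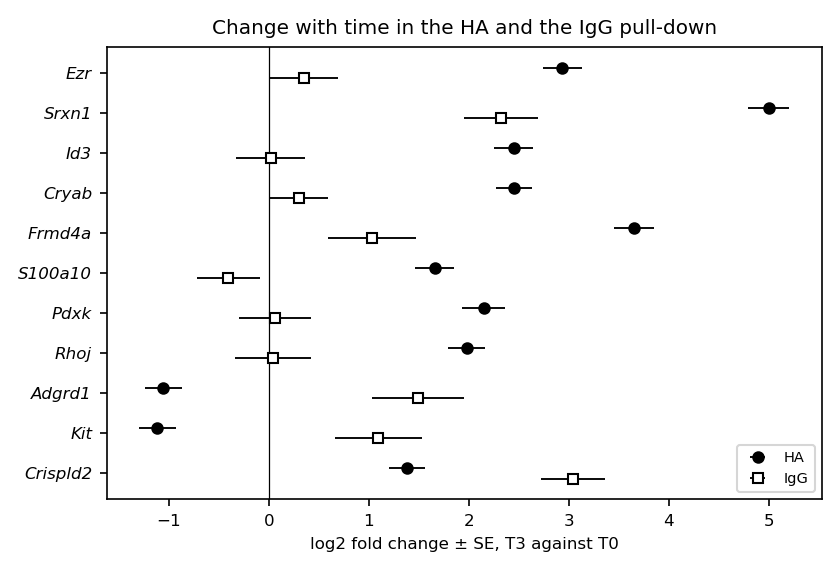
Log2 fold change of T3 against T0 in HA (filled circles) and in IgG (open squares), bars are SE with 3 libraries per group, for the 8 genes more positive and the 3 more negative in HA that passed the interaction test. Ezr rose by 2.94 in HA while its IgG value lies near 0, and for Kit and Adgrd1 the signs are opposite.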

How the data were processed

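RNA was measured in anti-HA and isotype control IgG pull-downs of 6 mice, 12 libraries in all. Per the labels, a bulk version of MARS-seq was used, a 3′ method with unique molecular identifiers, and barcoded samples were pooled before amplification. Which samples shared a pool is not given in the sources used here. Per the submitters' processing notes, the authors used cutadapt, STAR 2.4.2a (mm10) and HTSeq, and only reads with 1 mapping position close to an annotated 3′ end were counted. The deposited values are counts per gene, whole numbers without normalisation. Unique mapping lowers the counts of near-identical genes, and the use of strand is not stated.

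Tests used edgeR 4.0.16 under R 4.3.3 (quasi-likelihood F-test, robust, TMM, filterByExpr), with Benjamini-Hochberg adjustment over all genes of a comparison and a threshold of 0.05. The SE of a log2 fold change was derived from the F statistic. HA T3 was compared with HA T0 in the 6 HA libraries, IgG T3 with IgG T0 in the 6 IgG libraries, and the interaction of antibody and time used all 12. HA and IgG libraries of 1 mouse deviated together (r of 0.14 to 0.30 over 6923 genes), so the interaction is also given with the animal as a block. Genes with 3 counts or fewer in all libraries of a time have a lower bound of the fold, computed against 3 counts per library. The fits were tested on simulated data.

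Named genes were, in each direction, the 12 with the smallest p-values (absolute log2 fold change of at least 1, no overlap in CPM), the 12 with the largest difference in CPM, the leading and opposing members of each gene list, all glia and ligand genes, the 8 with the smallest interaction p-values and the leading genes at the floor. Not every gene of this rule is reported singly. Genes and lists were chosen with earlier results of these data known. Alternatives were other scalings (DESeq2's RLE, library totals), no filter, a minimum of 5 counts in 1 library, DESeq2 1.42.0, a replicate block, a minimum log2 fold change of 1, thinning, leaving out each library, and fitting all 12 libraries together.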

Additional observations from a re-analysis of the deposited data

Results flagged for a closer look

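The change with time differed between the HA and IgG pull-downs for 34 genes by the interaction test. The difference of log2 fold changes, HA less IgG, was 2.79 for Srxn1, 2.69 for Frmd4a, 2.66 for Ezr, 2.51 for Id3, 2.49 for Gdnf and 2.25 for Cryab. It was 2.16 for Pdxk, 2.15 for S100a10, 2.07 for Hspb1, 2.01 for Rhoj, 1.92 for Hmgcs1, 1.86 for Gap43 and 1.52 for Bag3. Hspb1, Hmgcs1, Gap43 and Bag3, described above for their rise in HA, lost this call under 6 to 12 of 18 alternatives. The difference was negative for Adgrd1 (-2.40), Kit (-2.06) and Crispld2 (-1.56).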

How the results depend on the processing

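Of 190 named genes called in HA, 176 kept call and direction under every alternative that gave a value, 14 lost the call at least once and 0 reversed. The minimum log2 fold change of 1 was not applied in this count of single genes. Called genes with smaller changes, such as Csf1 (log2 0.90), fail it by construction and are not among the 14 for that reason. Of 16 named genes called in the interaction, 5 kept the call throughout and 11 lost it at least once. In HA, a minimum log2 fold change of 1 left 1723 calls (1025 higher, 698 lower), library totals gave 2641 lower and a fit of all 12 libraries 892 lower. Leaving out 1 library gave 2216 to 3201 calls, 1375 to 1788 higher and 841 to 1413 lower. In IgG, no filter gave 519 (192 lower), a minimum of 5 counts in 1 library 86 lower and a fit of all 12 libraries 704 (445 higher, 259 lower). Leaving out 1 library gave 167 to 333, 144 to 278 higher and 18 to 55 lower. The interaction had 20 calls with RLE scaling (17 more positive in HA), 8 with library totals (6 higher), 80 with DESeq2 (51 higher, 29 lower) and 156 with the animal as replicate block (131 higher, 25 lower). Leaving out 1 library gave 5 to 95, 5 to 68 higher and 0 to 27 lower. The cause of these shifts was not tested, except that stricter or wider sets of genes or libraries differ by construction. Mouse numbers 1 and 4 occur at both times but name different mice, because each mouse was killed for its sample. Their HA libraries had r of 0.14 and 0.02. HA and IgG libraries of 1 mouse had r of 0.14 to 0.30, so r cannot tell same from different mice. With the mouse number as a replicate block HA had 3429 calls (1861 higher, 1568 lower) and IgG 287 (207 higher, 80 lower). Counts of list members called were within 1.5 times of those given for 1278 of 1470 recomputed. IgG depth limits every comparison with IgG.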
